A study of Bos taurus with 6 samples.

Results

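The dystrophin-glycoprotein complex was followed through 8 of its genes, DMD, UTRN, DAG1, SGCA, SGCB, SGCD, DTNA and SSPN, in the longissimus dorsi muscle of cattle. The genes were chosen by name as subunits of the complex, or in the case of UTRN as the autosomal relative of DMD. Earlier results of these data were known when they were chosen. All 8 were found among the 18010 annotated genes of the RNA-Seq files, and all 8 were among the 9781 genes that were expressed well enough to be tested. The data came from 3 Shandong black cattle, a breed derived from Japanese black, Luxi and Bohai black cattle, and from 3 Luxi cattle, a local Chinese breed. All animals were 18 months old, the labels name no treatment, and one muscle library was made from each animal. The animals of each breed came from a different company, so that breed and herd cannot be told apart. Levels are FPKM, fragments scaled to transcript length and library depth, and so can be set side by side between genes. Differences are given on the scale of log2(FPKM + 1) as Luxi minus Shandong black.

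The dystrophin-glycoprotein complex links the actin cytoskeleton of the muscle fibre to the basement membrane across the sarcolemma. Dystrophin binds actin at one end and the membrane protein dystroglycan at the other, dystroglycan binds laminin outside the fibre, and the sarcoglycans and sarcospan hold the complex together in the membrane. Dystrobrevin and the syntrophins form a signalling scaffold on its inner face, and loss of dystrophin or of a sarcoglycan causes muscular dystrophy.

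None of the 8 genes passed the threshold for a breed difference, which was a Benjamini-Hochberg adjusted p under 0.05 with a log2 difference of at least 1 in limma, against 2.57% of all tested genes. None passed the adjusted p alone either, against 2.92% of all tested genes. An unadjusted p under 0.05 was reached by 2 of the 8 genes, DAG1 and SGCB, and by 21.8% of all tested genes. The estimate was positive for 6 of the genes and negative for 2, with a median log2 difference of 0.41, whereas 62.5% of all tested genes had a positive estimate and the median of all genes was 0.13. Size factors and quantile normalization moved the median of all genes to 0.02 and 0.003 and that of the 8 genes to 0.28 and 0.26. The animals of the breeds did not overlap for 3 of the 8 genes, against 29.1% of all tested genes. In 2 of these, DMD and DAG1, every Luxi animal was above every Shandong black animal, a pattern seen in 20.0% of all tested genes. In SGCD every Luxi animal was below, as in 9.13% of all tested genes. With 3 animals in each breed an exact permutation test cannot give a p below 0.1, and this smallest value was obtained for DMD, DAG1 and SGCD.

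**Figure D1:**
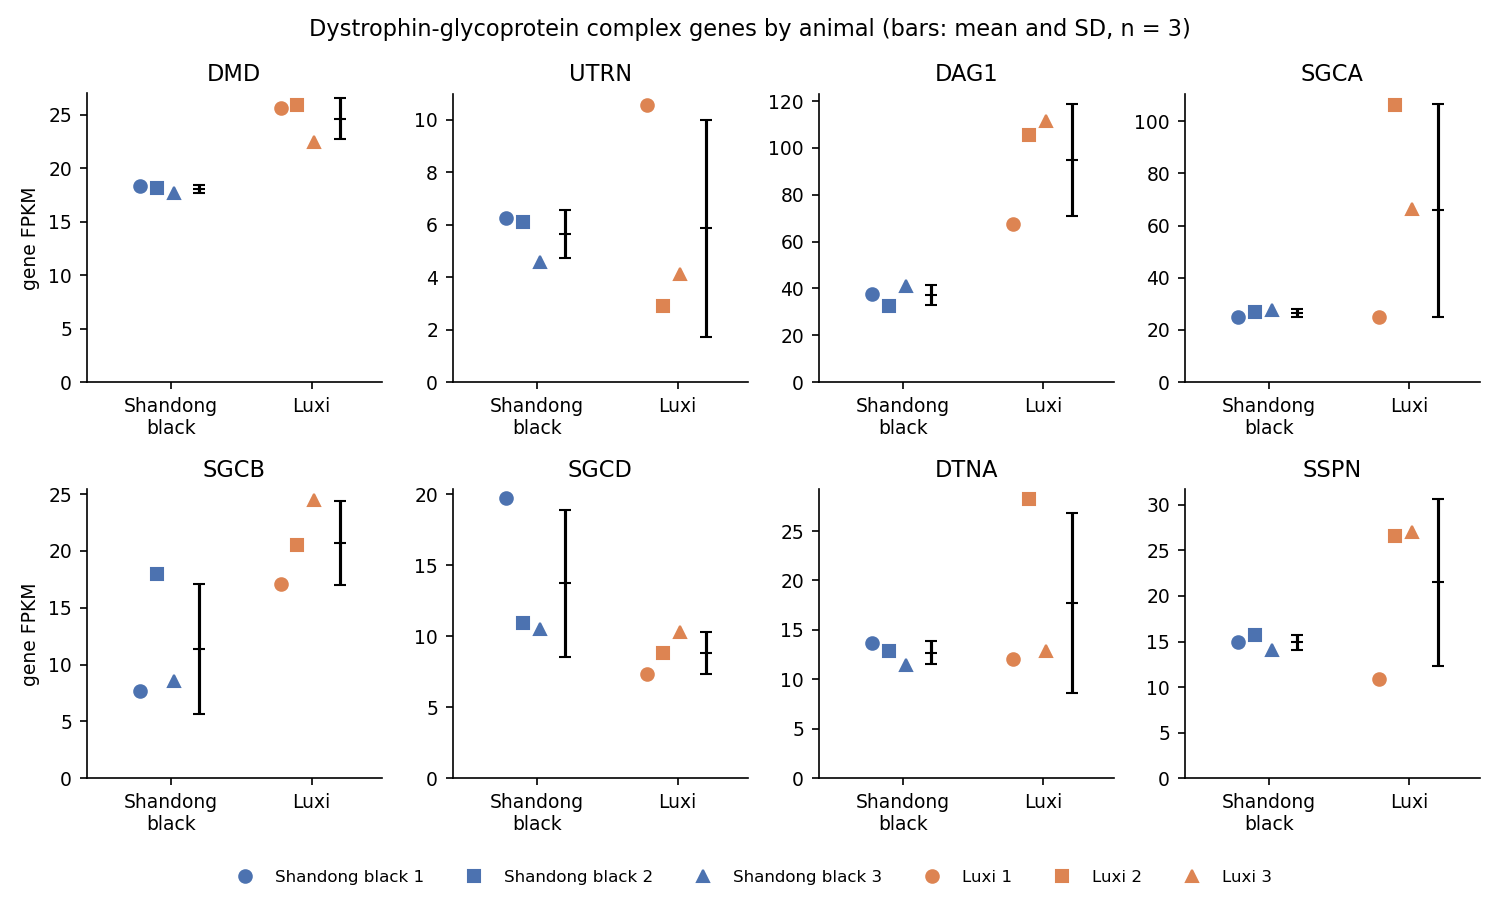
Gene FPKM of the 8 genes in each animal, with 1 panel per gene, Shandong black cattle in blue, Luxi cattle in orange, the replicate number shown by the symbol, and the mean and SD of each breed (n = 3) as a black bar. The Luxi animals lie above all Shandong black animals in DMD and DAG1, and Luxi cattle replicate 1 lies apart from the other Luxi animals in UTRN, SGCA and SSPN.

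DMD encodes dystrophin, the rod-like protein that carries force from actin to the membrane. In replicates 1 to 3, given in this order throughout, its FPKM was 18.4, 18.1 and 17.7 for the Shandong black and 25.6, 25.9 and 22.5 for the Luxi cattle. The values were close together within each breed, and the lowest Luxi animal was above the highest Shandong black animal. The mean was 18.1 ± 0.345 in Shandong black and 24.7 ± 1.91 in Luxi cattle (SD, n = 3), 1.36 times the Shandong black mean. The log2 difference was 0.42 with a standard error of 0.19, positive in 3 of 3 Luxi animals, and it did not pass the test in limma (adjusted p = 0.241). With quantile normalization the difference was 0.28. In TPM the separation was lost, with 50.8, 47.4 and 46.2 in the Shandong black and 78.4, 58.3 and 47.6 in the Luxi cattle. In bulk muscle, fewer fibres in a sample and less RNA per fibre cannot be told apart. Since DMD lies on chromosome X (109941866 to 112307209 on the plus strand of ARS-UCD1.2), the level of XIST, the RNA made from the inactive X chromosome of female cells, was looked up after the values of DMD were seen. XIST FPKM was 10.7, 4.83 and 14.0 in the Shandong black and 0, 0 and 0.207 in the Luxi cattle, so that breed and the presence of XIST cannot be told apart, while the labels do not give the sex of the animals.

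UTRN encodes utrophin, which has the same overall layout as dystrophin and in adult muscle is found mostly at neuromuscular junctions and in blood vessels. Its FPKM was 6.25, 6.10 and 4.59 in the Shandong black and 10.6, 2.89 and 4.13 in the Luxi cattle. The Luxi animals held both the highest and the lowest value, with replicate 1 above and replicates 2 and 3 below all Shandong black animals. Between the breeds the log2 difference was -0.11 with a standard error of 0.39 (limma, adjusted p = 0.896), and it turned positive without Luxi cattle replicate 2 (0.22) or replicate 3 (0.02). The animals with the lowest and highest UTRN levels also had the lowest and highest summed FPKM of smooth muscle and mural cell markers. These sums were 60.9 in Luxi cattle replicate 2 and 314 in replicate 1, against 94.5 to 114 in the Shandong black cattle. Luxi cattle replicate 3 did not follow this order, since its sum of 131 was above and its UTRN level below all Shandong black animals. RGS5 alone held 131 FPKM of the sum in Luxi cattle replicate 1. Endothelial markers summed to 67.3 FPKM in Luxi cattle replicate 1, against 25.7 and 36.5 in the other Luxi animals and 21.1 to 22.0 in Shandong black cattle. The part of these cells in the UTRN values was not tested.

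The level of UTRN was below that of DMD in every animal. The ratio of UTRN to DMD FPKM was 0.340, 0.336 and 0.259 in the Shandong black and 0.412, 0.111 and 0.184 in the Luxi cattle. The highest and the lowest ratio were both in Luxi animals. The mean log2 ratio differed by -0.60 between the breeds, which was not distinguishable from the spread between animals in a two-sided exact permutation test (p = 0.4).

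The annotation lists 13 transcripts of DMD, of which 6 had a value in all animals, and the exon structures were compared with the transcript that has the most exons, 79. The 79-exon transcript alone showed FPKM values of 16.5, 16.4 and 13.1 in the Shandong black and 22.5, 17.7 and 17.3 in the Luxi cattle. Transcripts that begin with its first exon and run along the whole gene carried between 94.1 and 99.3% of the reference FPKM of an animal. Transcripts that begin inside the gene, after exon 62 or after exon 55, carried 0.435 to 5.49%, with both the lowest and the highest share in Shandong black animals. These are the places where the short dystrophins of other tissues are known to begin, among them the product known from Schwann cells. A transcript with a first exon further upstream carried 0.128 to 0.803%. The full-length form was thus the main dystrophin RNA in every animal of both breeds.

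The depth of DMD was uneven along the transcript, and the unevenness was shared by all animals. Depth here is the read coverage of all transcripts on the strand of the gene, divided by the aligned gigabases of the library, and it is given as a description with no test. Over the first 26 of the 79 exons it was 27.0 ± 2.26 in Shandong black and 31.7 ± 1.95 in Luxi cattle, and over the last 26 exons 10.4 ± 1.92 and 14.6 ± 2.65 (SD, n = 3). The ratio of the former to the latter was 2.1, 3.54 and 2.38 in the Shandong black and 2.72, 1.74 and 2.24 in the Luxi cattle, so that every animal had more depth at the 5′ end. Every Luxi animal was above every Shandong black animal in 39 of the 79 exons, and every Luxi animal was below in 1 exon.

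Exons 37 and 38 stood out within DMD and were singled out after their values were seen. The depth of exon 37 was 25.3, 28.1 and 25.9 in the Shandong black and 92.5, 71.6 and 72.3 in the Luxi cattle. The depth of exon 38 was 22.8, 24.2 and 22.0 in the former and 81.6, 61.6 and 63.5 in the latter. Both exons were covered far more deeply than their neighbours in every animal, since exon 36 had a depth of 5.40 to 9.76 and exon 39 of 4.18 to 13.8 over the 6 animals. The ratio of the Luxi to the Shandong black mean was 2.98 in exon 37 and 2.99 in exon 38, against a median of 1.29 over all 79 exons. Without these 2 exons, the mean depth over DMD was 17.3, 17.1 and 17.8 in the Shandong black and 22.2, 22.9 and 20.9 in the Luxi cattle. The breeds still did not overlap, and the ratio of their means moved from 1.32 to 1.26. The source of the extra depth on exons 37 and 38 was not tested.

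**Figure D2:**
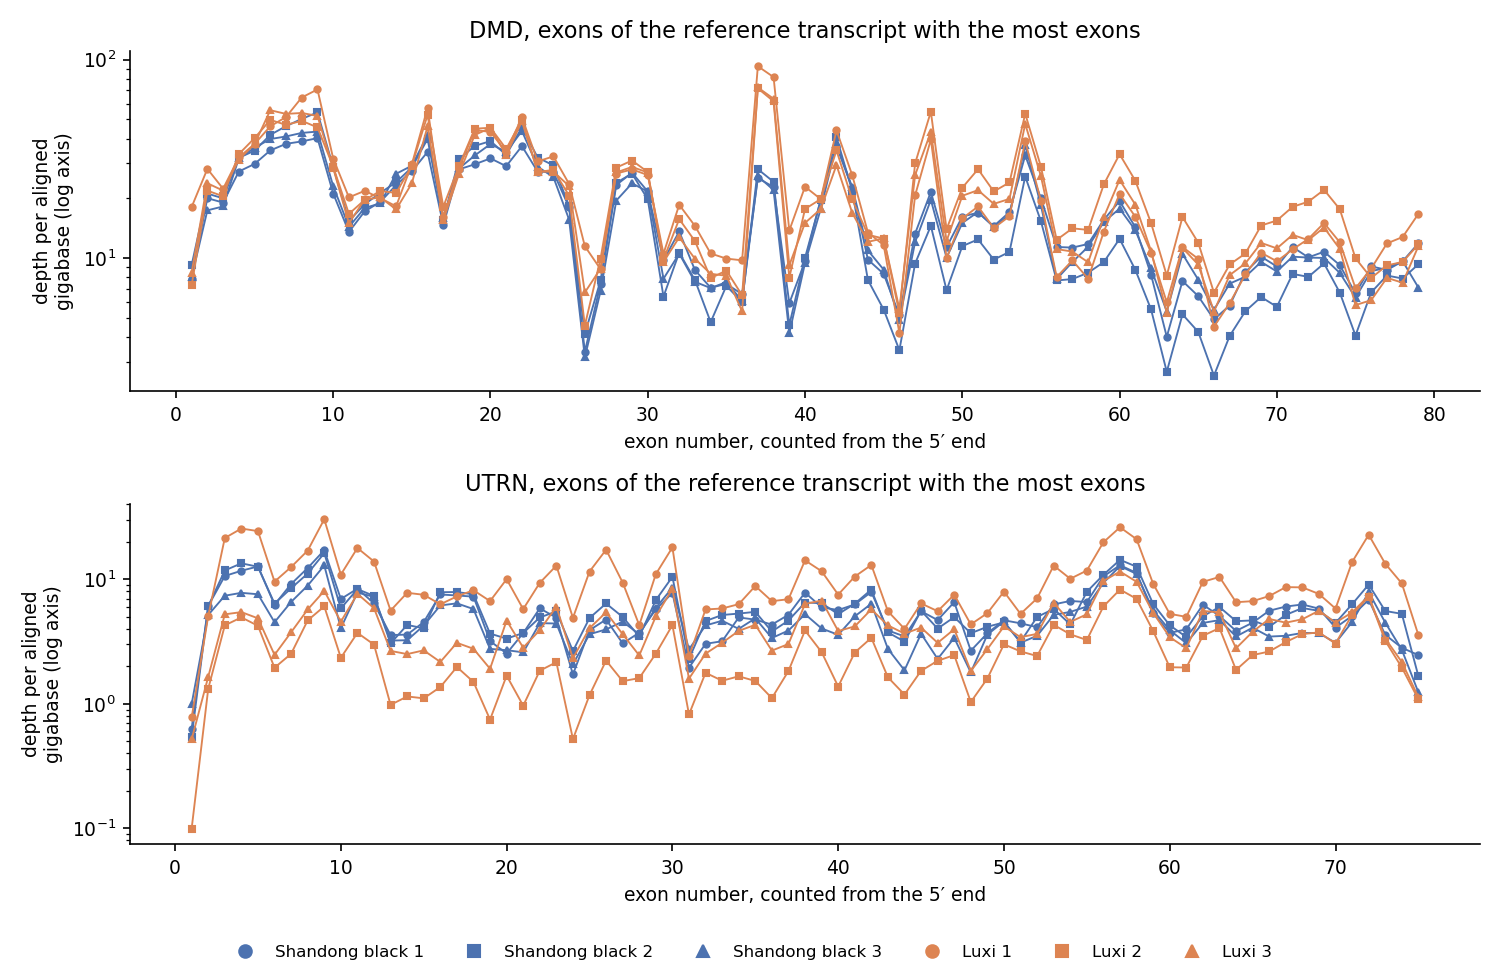
Depth per aligned gigabase on a log axis for each exon of the reference transcript with the most exons of DMD (top, 79 exons) and UTRN (bottom, 75 exons), 1 line per animal, Shandong black cattle in blue and Luxi cattle in orange. DMD depth is higher over the first than over the last exons in all animals, and at exons 37 and 38 the Luxi animals reach 61.6 to 92.5 and the Shandong black animals 22.0 to 28.1, whereas in UTRN Luxi cattle replicate 1 runs above and replicate 2 below the other animals along nearly the whole transcript.

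The spread of UTRN between the Luxi animals ran along its whole length. Of the 75 exons of the transcript used, Luxi cattle replicate 1 had the highest depth in 70 and Luxi cattle replicate 2 the lowest in 72. The depth of the first 25 exons over that of the last 25 was 1.44, 1.51 and 1.48 in the Shandong black and 1.42, 0.806 and 1.12 in the Luxi cattle. This ratio was smaller for UTRN than for DMD in every animal, and in Luxi cattle replicate 2 UTRN had no 5′ excess. The 2 ratios are not fully alike, since exons count by their bases. The last UTRN exon has 2010 bases, at a depth of 1.09 to 3.56, whereas the last exon of the DMD transcript used has 117. The annotation lists 17 transcripts of UTRN, and they differ in where they start. One that starts at position 81714946 of chromosome 9, inside the locus (81651775 to 82208337), had an FPKM of 4.35 in Luxi cattle replicate 1. Its FPKM was 0.233 in Shandong black cattle replicate 1, 0.166 in replicate 3 and at most 0.000195 in the other animals. A transcript of 75 exons that starts at 81651775 had an FPKM of 0.476 to 1.92 over the 6 animals.

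DAG1 encodes dystroglycan, which is cut into an outer subunit that binds laminin and a membrane subunit that binds dystrophin. Its FPKM was 37.7, 32.5 and 41.0 in the Shandong black and 67.5, 106 and 112 in the Luxi cattle. Every Luxi animal was above every Shandong black animal, with Luxi cattle replicate 1 the closest to them. The mean was 37.1 ± 4.28 in Shandong black and 94.9 ± 24.0 in Luxi cattle (SD, n = 3), 2.56 times the Shandong black mean. The log2 difference of 1.31 with a standard error of 0.28 was the largest among the 8 genes, and it stood just outside the threshold in limma (adjusted p = 0.0576). The paper, which used another test, lists DAG1 among its upregulated genes. With TPM, quantile normalization or no mean-variance trend, or without Luxi cattle replicate 1, the adjusted p of limma was 0.0387, 0.0339, 0.0415 and 0.0164, within a range of 0.0164 to 0.207 over all alternatives.

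The DAG1 signal came from annotated transcripts alone, with no assembled transcript added in any animal. The gene lies on the minus strand of chromosome 22 (50614127 to 50665329) and has 6 reference transcripts. A transcript of 2 exons carried 59.1 to 98.0% of the DAG1 FPKM of an animal, and its FPKM was 26.5, 31.9 and 29.2 in the Shandong black and 50.7, 99.9 and 66.1 in the Luxi cattle. It separated the breeds in the same way as the gene. The lowest share was in Luxi cattle replicate 3, where a transcript of 3 exons and 5446 bases reached an FPKM of 26.7, against 0.256 to 4.38 in the other animals.

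The sarcoglycans are membrane proteins that form a tight subcomplex next to dystroglycan. SGCA, alpha-sarcoglycan, showed FPKM values of 24.8, 27.0 and 27.8 in the Shandong black and 24.9, 106 and 66.2 in the Luxi cattle. Luxi cattle replicate 1 lay within the Shandong black range, whereas replicates 2 and 3 lay far above it. The log2 difference was 1.06 with a standard error of 0.49 (limma, adjusted p = 0.258), with 2 of 3 Luxi animals above the Shandong black range. Without Luxi cattle replicate 1 it was 1.63 and passed the threshold (limma, adjusted p = 0.0221), within a range of 0.0221 to 0.474 over the alternatives. Without Luxi cattle replicate 2 the difference was 0.60. SGCA is a compact gene of 9.593 kb on chromosome 19 (36482941 to 36492533, minus strand), and 1 of its 2 reference transcripts carried at least 99.6% of its FPKM in every animal.

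SGCB, beta-sarcoglycan, showed FPKM values of 7.65, 17.9 and 8.52 in the Shandong black and 17.1, 20.5 and 24.5 in the Luxi cattle. The lowest Luxi value lay just below the highest Shandong black value, that of replicate 2. The estimate on the log2 scale was 0.89 with a standard error of 0.33 (limma, adjusted p = 0.179). The low values of Shandong black cattle replicates 1 and 3 went along with spliced transcripts that touch the SGCB exons but were not added to the gene, with an FPKM of 10.1 and 6.64. No such transcript was present in the other 4 animals. On the depth over all annotated exons, a measure added after the data were seen that includes these transcripts where they lie on the exons, SGCB was 12.6, 17.9 and 11.9 in the Shandong black and 17.1, 20.6 and 24.5 in the Luxi cattle. The log2 difference then was 0.53. The locus lies on chromosome 6 (67878832 to 67905909, minus strand).

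SGCD, delta-sarcoglycan, showed FPKM values of 19.7, 10.9 and 10.5 in the Shandong black and 7.32, 8.84 and 10.3 in the Luxi cattle. Every Luxi animal was below every Shandong black animal, but Luxi cattle replicate 3 missed Shandong black cattle replicate 3 only narrowly. The log2 difference was -0.54 with a standard error of 0.28 (limma, adjusted p = 0.298). Without Shandong black cattle replicate 1 it was -0.27. Its direction depended on which transcripts were summed. Spliced transcripts that touch the exons but were left out had an FPKM of 6.61 in Luxi cattle replicate 1 and 8.20 in replicate 3, against 0 in Luxi cattle replicate 2 and 0 to 1.42 in the Shandong black cattle. When all of them were added, SGCD was 19.7, 12 and 12 in the Shandong black and 13.9, 8.84 and 18.5 in the Luxi cattle, the breeds overlapped, and the log2 difference was -0.10. On the depth over all annotated exons it was 0.61, in the opposite direction. The breeds overlapped there too, with 5.19, 4.18 and 4.24 in the Shandong black and 7.46, 3.25 and 15.7 in the Luxi cattle.

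The transcript that carried SGCD also differed between animals. The gene spans chromosome 7 from 66907514 to 68019302 on the plus strand. It has 2 reference transcripts, one of 8 exons and 1233 bases and one of 9 exons and 4507 bases. The 9-exon transcript starts further upstream, at 66907514 against 67576204, and also runs further at its 3′ end. The 8-exon transcript carried 97.8% or more of the SGCD FPKM in 5 animals and 10.3% in Luxi cattle replicate 3. In that animal the 9-exon transcript had an FPKM of 9.22, against 0 to 0.360 in the others. The lower FPKM of SGCD in Luxi cattle thus holds for the counted transcripts and not for all reads on its exons.

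**Figure D3:**
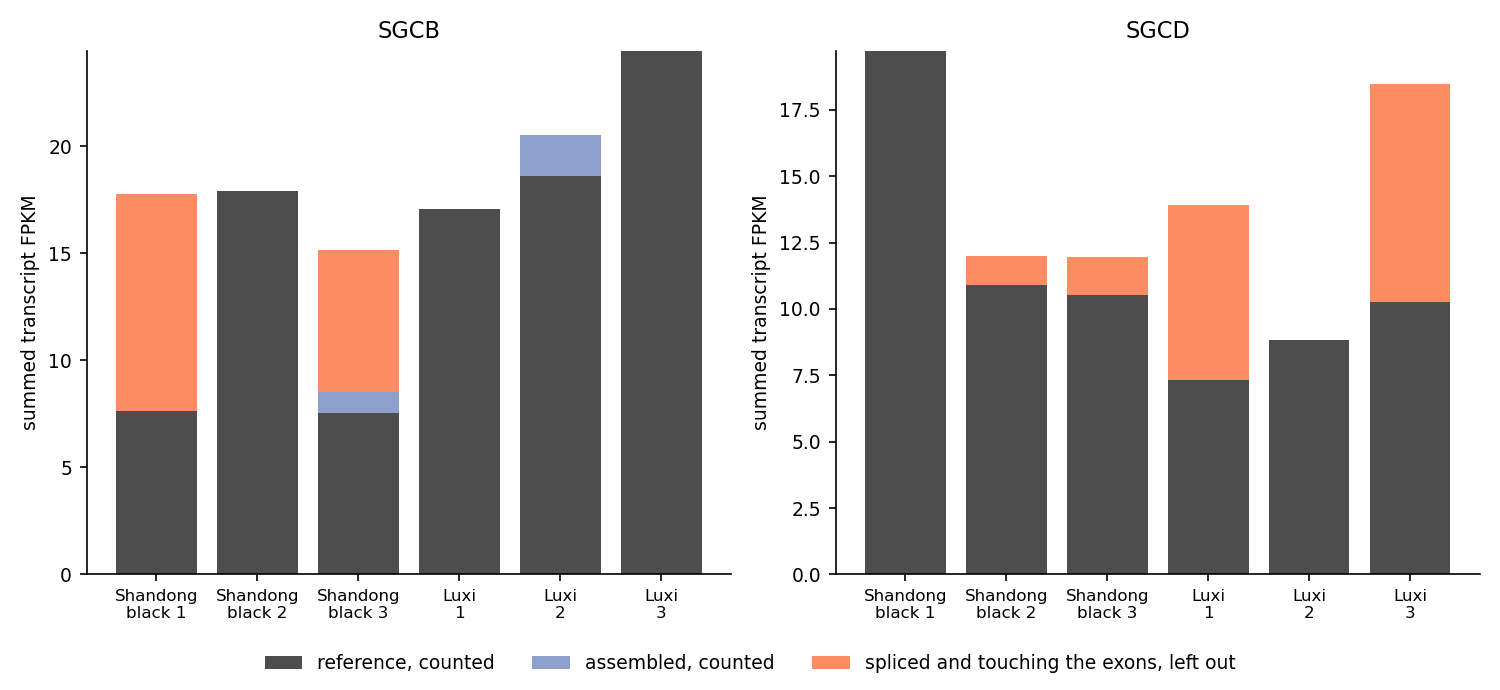
Summed transcript FPKM of SGCB (left) and SGCD (right) in each animal, with reference transcripts in dark grey, assembled transcripts that were counted in blue, and spliced assembled transcripts that touch the exons but were left out in orange. The left-out transcripts lie in Shandong black cattle replicates 1 and 3 for SGCB (10.1 and 6.64 FPKM) and mainly in Luxi cattle replicates 1 and 3 for SGCD (6.61 and 8.20 FPKM).

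SSPN encodes sarcospan, a small membrane protein that binds the sarcoglycans. Its FPKM was 14.9, 15.7 and 14.0 in the Shandong black and 10.9, 26.6 and 27.0 in the Luxi cattle. As in SGCA, Luxi cattle replicates 2 and 3 were above all Shandong black animals, and replicate 1 was below them. On the log2 scale the breeds differed by 0.40 with a standard error of 0.35 (limma, adjusted p = 0.536). Without Luxi cattle replicate 1 it was 0.81, with an adjusted p of 0.0353 in limma and a range of 0.0353 to 0.822 over the alternatives, but it did not reach the fold threshold. Without Luxi cattle replicate 2 or 3 the difference was 0.20 or 0.19. SSPN has 1 reference transcript of 3 exons on chromosome 5 (83680832 to 83722961, minus strand), which held all of its FPKM.

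DTNA encodes alpha-dystrobrevin, which binds dystrophin and the syntrophins inside the fibre. Its FPKM was 13.7, 12.9 and 11.5 in the Shandong black and 12, 28.2 and 12.9 in the Luxi cattle. Luxi cattle replicate 2 stood alone, while the other Luxi animals lay within the Shandong black range. On the log2 scale the breeds differed by 0.35 with a standard error of 0.33 (limma, adjusted p = 0.565), and it was -0.02 without Luxi cattle replicate 2. DTNA lies on chromosome 24 (22130553 to 22581765, minus strand) and has 25 reference transcripts, 8 of which had a value in all animals. In Luxi cattle replicate 2 a transcript of 16 exons had an FPKM of 10.2, against 1.73 in Shandong black cattle replicate 2 and at most 0.00426 in the other animals. A transcript of 24 exons was present in all animals, at 2.88 to 8.33 FPKM.

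In both breeds the order of the mean gene FPKM began with DAG1, SGCA, DMD and SSPN and ended with UTRN. In Shandong black cattle the ranges of DAG1, SGCA, DMD and SSPN did not touch, at means of 37.1, 26.5, 18.1 and 14.9 FPKM, while SSPN, SGCD, DTNA and SGCB overlapped one another in turn. On the depth over all annotated exons, SGCA stood above DAG1 in both breeds, at means of 22.8 and 19.8 in Shandong black and 56.8 and 52.1 in Luxi cattle, and SGCB stood above SSPN. By FPKM in Luxi cattle only DTNA and SGCD were apart among neighbours in the order, and the 6 other neighbouring pairs overlapped. Together the 8 genes summed to 143, 141 and 136 FPKM in the Shandong black and 176, 325 and 279 FPKM in the Luxi cattle. The Shandong black animals were thus nearly equal in this sum, and Luxi cattle replicate 1 was nearer to them than to the other Luxi animals. DAG1 made up 23.0 to 40.0% of the sum and UTRN 0.888 to 6.01%.

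The Luxi animals did not share one pattern. Luxi cattle replicate 1 was above all Shandong black animals in 3 of the 8 genes (DMD, UTRN and DAG1) and below them in 2. Luxi cattle replicate 2 was above in 6 genes and below in 2, and replicate 3 was above in 5 and below in 2. A single animal can easily lie outside the range of 3 others. The share of all tested genes was not taken for single animals, so these counts only describe the 8 genes. All 3 animals expressed the skeletal muscle actin gene ACTA1, at 12237 FPKM in replicate 1 and at 54910 and 47110 FPKM in replicates 2 and 3, against 32188 to 41650 FPKM in the Shandong black cattle.

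The other subunits of the complex were read from a list of 12 genes, of which 9 were found and 8 were tested. NOS1, the neuronal nitric oxide synthase that docks on the syntrophins, was the 1 gene of this list that passed the threshold. Its FPKM was 0.494, 2.17 and 1.00 in the Shandong black and 6.07, 8.91 and 4.20 in the Luxi cattle. There was no overlap, and the Luxi mean was 5.23 times the Shandong black mean. The log2 difference of NOS1 was 1.75 with a standard error of 0.34 (limma, adjusted p = 0.0444), but it kept the threshold in only 7 of 18 alternatives, with an adjusted p of 0.0303 to 0.177, and was lost with TPM, size factors, quantile normalization and reference transcripts only.

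Of the syntrophins, the adaptors that bind dystrophin and dystrobrevin, SNTB1 showed FPKM values of 2.39, 6.66 and 4.28 in the Shandong black and 8.42, 18.6 and 16.2 in the Luxi cattle. Its breeds did not overlap, with a log2 difference of 1.51 and a standard error of 0.38 (limma, adjusted p = 0.0851). CAV3, the caveolin of muscle, had a log2 difference of 0.73 with a standard error of 0.39 (limma, adjusted p = 0.317), with 19.2 FPKM in Luxi cattle replicate 1 and 38.5 and 59.5 in the others against 19.4 to 22.4 in the Shandong black cattle. Its estimate was 1.16 without Luxi cattle replicate 1 and 0.37 without replicate 3. SGCE, epsilon-sarcoglycan, had a low level of 0.584 to 1.22 FPKM in the Shandong black and 1.64 to 2.39 FPKM in the Luxi cattle, with no overlap.

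**Figure D4:**
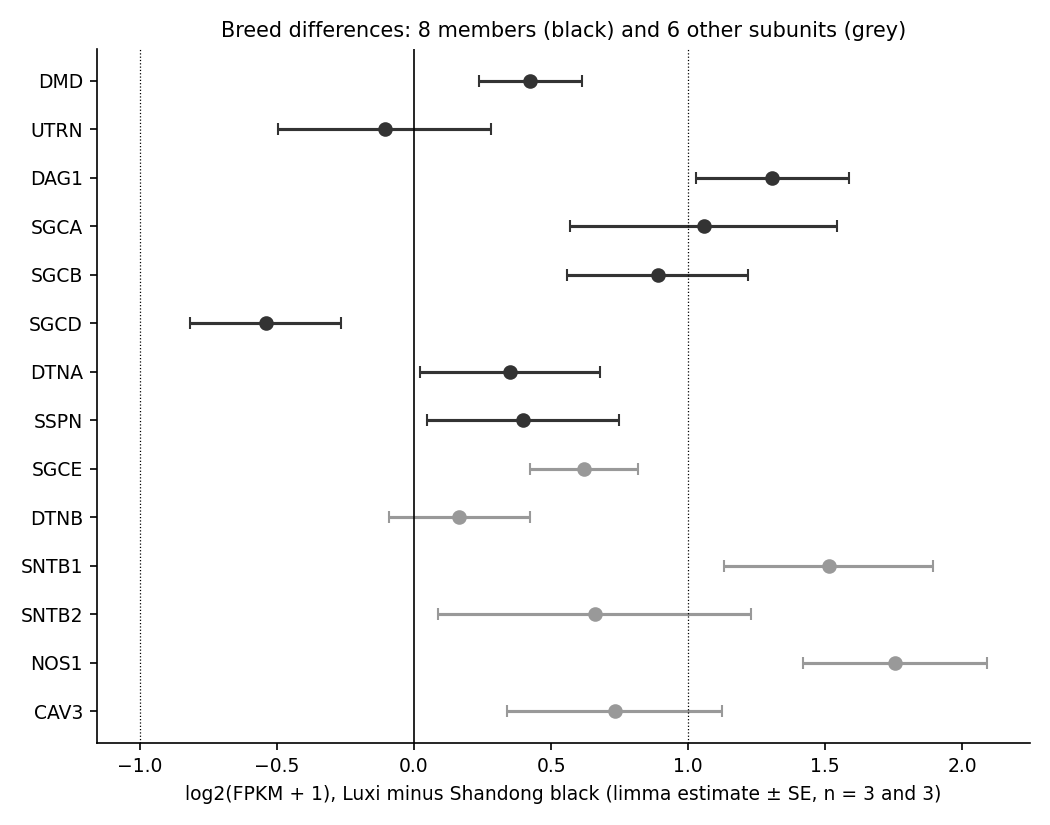
Difference in log2(FPKM + 1), Luxi minus Shandong black, as the limma estimate with its standard error (3 animals per breed) for the 8 genes in black and 6 further tested subunits of the complex in grey, with dotted lines at a log2 difference of 1 in either direction. DAG1 has the largest estimate of the 8 genes (1.31) and SGCD the lowest (-0.54), while NOS1 (1.75) and SNTB1 (1.51) lie above DAG1.

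The genes around the complex were read from 6 lists, the subunits above included, with 75 entries, 69 found genes and 63 tested genes. NOS1 was the 1 gene among the 63 that passed the threshold, against 2.57% of all tested genes, and the count ranged from 0 to 4 over the alternatives. The median log2 difference of these genes was 0.16, and 42 were positive and 21 negative, against 62.5% positive among all tested genes. The breeds did not overlap in 17 of them, with the Luxi animals above in 12 and below in 5, against 29.1%, 20.0% and 9.13% of all tested genes.

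Among the 9 extracellular ligands, which tie dystroglycan to the basement membrane, 8 had a positive estimate and 4 had every Luxi animal above, against 62.5% and 20.0% of all tested genes. LAMB2, a laminin beta chain, showed FPKM values of 13.4, 7.56 and 13.0 in the Shandong black and 22.7, 27.6 and 29.4 in the Luxi cattle (log2 difference 1.19, limma adjusted p = 0.0615). HSPG2, perlecan, showed FPKM values of 17.3, 20.3 and 18.2 in the Shandong black and 31.4, 32.2 and 39.1 in the Luxi cattle (log2 difference 0.84, limma adjusted p = 0.0791). LAMA2, the laminin alpha chain of muscle whose loss causes muscular dystrophy, overlapped, at 17.0 to 26.8 FPKM in the Shandong black and 20.0 to 28.8 FPKM in the Luxi cattle. The list's other largest estimates were for BGN, biglycan, at -0.74, and LAMA5, at 0.67, and both overlapped between the breeds. The BGN estimate ranged from -1.32 to -0.40 when an animal was left out.

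The 14 tested genes of dystroglycan glycosylation, which build the sugar chain that binds laminin, were split evenly, with 7 positive and 7 negative, and none passed the threshold. In DPM2 and DPM3 every Luxi animal was below every Shandong black animal. DPM2, a subunit of dolichol-phosphate mannose synthase, showed FPKM values of 2.75, 3.0 and 3.41 in the Shandong black and 1.40, 1.35 and 1.51 in the Luxi cattle, with a log2 difference of -0.74 (limma, adjusted p = 0.0501). DPM3, another subunit of the same enzyme, had a log2 difference of -0.55.

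The linkers, the integrin attachment and the membrane repair genes held no call among 9, 11 and 12 tested genes. Of the linkers, DES, the desmin gene, had the largest estimate at -1.20, with an FPKM of 174 in Luxi cattle replicate 1 against 1249 to 2571 in the other 5 animals, and its estimate was -0.14 without that animal. SYNC, the desmin-binding syncoilin, had a log2 difference of -0.67 with every Luxi animal below, and MARK2, a kinase, of 0.58 with every Luxi animal above, while SYNM, the intermediate filament protein synemin, overlapped at 0.41. In the integrin list VCL, vinculin, had a log2 difference of 0.81 with every Luxi animal above, at 32.3 to 42.2 FPKM against 16.3 to 27.8. ITGA7, the alpha chain of the main laminin-binding integrin of muscle, had a log2 difference of -0.65 and overlapped, as did ITGB1BP2 at 0.57 (-0.15 to 1.56 when an animal was left out), and TLN1, talin, had -0.53 with every Luxi animal below. In the repair list EHD2, which stabilises caveolae, had the largest estimate at 1.01 (limma, adjusted p = 0.0901), with every Luxi animal above. CAVIN4 at 0.77, the protease CAPN3 at 0.67 and ANXA1 at -0.62 overlapped between the breeds.

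Summed levels of cell type and fibre type markers differed with breed and with animal. Whether the makeup of the tissue differed, and its part in the values of the 8 genes, was not tested. Slow fibre markers summed to 26939 to 33583 FPKM in the Shandong black and 3385 to 13848 in the Luxi cattle. All 8 genes of the list had a negative estimate, and 1 passed the threshold. MYL2 made up the largest part of this sum, at 16912 to 24909 FPKM in the Shandong black and 1513 to 7936 FPKM in the Luxi cattle. MYH7, TPM3 and ATP2A2 overlapped between the breeds, and Luxi cattle replicate 1 had the highest TPM3 and ATP2A2 of all animals (906 and 681 FPKM). Fast fibre markers summed to 1796 to 4417 FPKM in the Shandong black cattle and 4164, 25360 and 22635 FPKM in the Luxi cattle replicates 1 to 3. The fast fibre sum of Luxi cattle replicate 1, of which MYLPF made up the largest part, was within the Shandong black range. Of the 8 single markers, TNNT3, TNNI2 and ATP2A1 were above and TNNC2 was below that range in this animal. Fibroblast markers summed to 114 to 170 FPKM in the Shandong black and 384 to 512 FPKM in the Luxi cattle, with 2 of 6 tested genes higher and past the threshold. Adipocyte markers summed to 134 to 196 FPKM in the Shandong black and 13.2 to 37.8 FPKM in the Luxi cattle, with 5 of 7 tested genes lower and past the threshold. None of the 8 slow and 8 fast fibre genes was at 0 in any animal. LEP of the adipocyte list was at 0 in 1 Luxi animal.

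The remaining lists moved less evenly. Of the endothelial markers 5 of 6 and of the smooth muscle and mural markers 6 of 7 had a positive estimate, with 1 of the latter, NOTCH3, past the threshold. Of the muscle fibre markers 7 of 11 were positive. This list shares MYH1, MYH2, TNNT3 and TNNI2, all positive, with the fast fibre list, and MYH7, which was negative, with the slow fibre list. Its sum was 43976 to 56820 FPKM in the Shandong black and 25119, 76617 and 66898 FPKM in the Luxi cattle. Satellite cell markers summed to 0.844 to 1.32 FPKM in the Shandong black and 1.86 to 3.35 FPKM in the Luxi cattle. Schwann cell markers summed to 48.1 to 120 FPKM in the Shandong black and 9.38 to 29.2 FPKM in the Luxi cattle. This sum was mostly S100B, at 46.8 to 118 against 5.76 to 26.6 FPKM, whereas MBP, at 0.252 to 0.415 against 0.821 to 1.86 FPKM, had every Luxi animal above. Leukocyte and blood markers summed to 7.72 to 11.6 and 5.49 to 9.78 FPKM, with HBA at 0 in 3 animals and CD3E in 1.

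**Figure D5:**
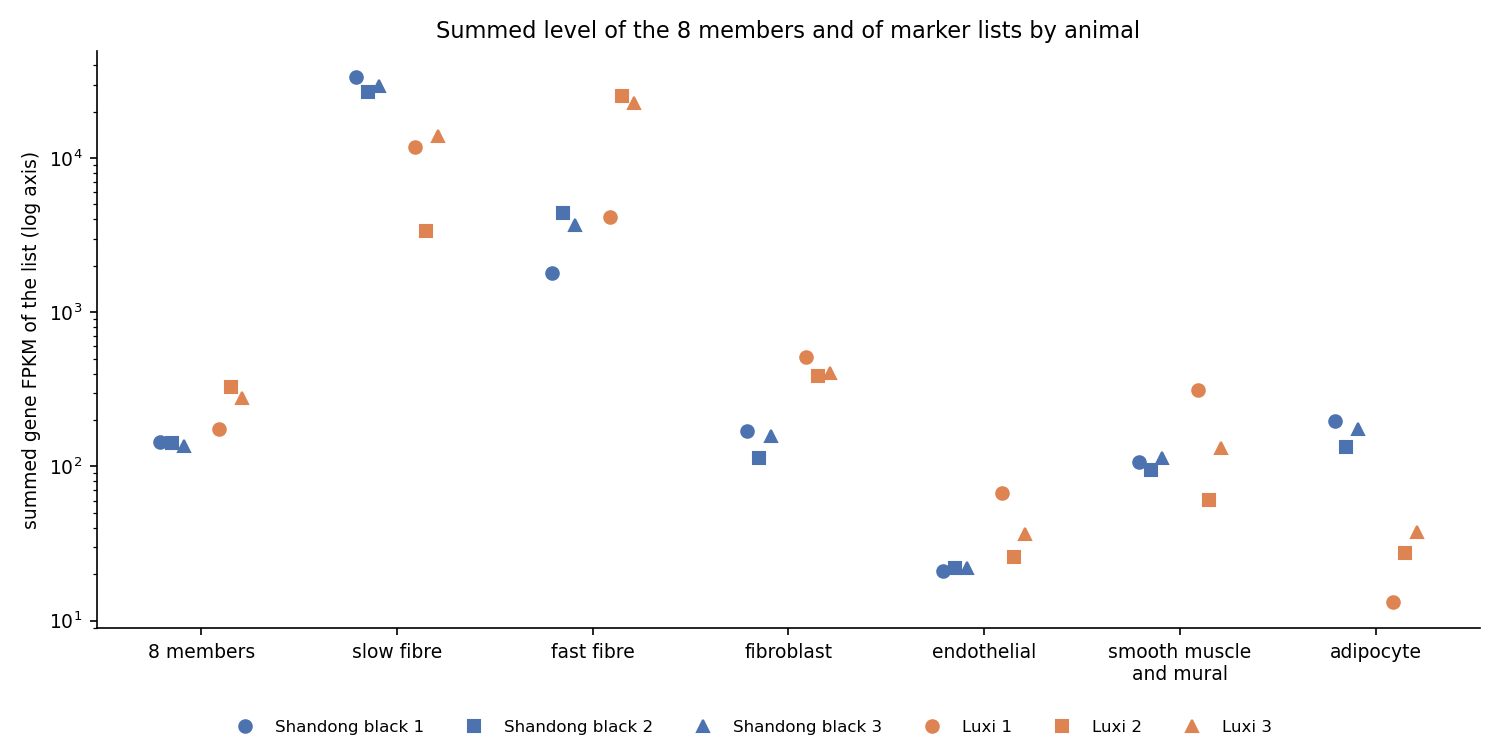
Summed gene FPKM on a log axis of the 8 genes of the complex and of 6 marker lists in each animal, Shandong black cattle in blue and Luxi cattle in orange with the replicate number shown by the symbol. The sum of the 8 genes is 176 in Luxi cattle replicate 1 and 325 and 279 in the others, the fast fibre sum of replicate 1 (4164) lies within the Shandong black range, and the endothelial and mural sums are highest in replicate 1 (67.3 and 314).

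The genes whose level over the 6 animals was most like that of DMD were RC3H2, ITSN1, ATG14, GABPB1 and IREB2. Likeness was measured as the largest difference between the centred log2(FPKM + 1) of a gene and that of DMD over the 6 animals, and it was 0.0374, 0.0424, 0.0485, 0.0520 and 0.0545 for these genes. All 5 had levels below that of DMD, from 1.52 FPKM in ATG14 to 6.98 FPKM in IREB2. Since log2(FPKM + 1) understates the differences of low genes, likeness on this scale is not likeness of the fold change in FPKM. RC3H2, the closest, showed FPKM values of 2.41, 2.43 and 2.22 in the Shandong black and 3.53, 3.74 and 3.09 in the Luxi cattle. The other 7 genes of the complex were set aside before this search, so it does not say how closely they follow DMD.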

How the data were processed

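RNA was measured in the longissimus dorsi muscle of 3 Shandong black and 3 Luxi cattle, with one TruSeq library per animal. After trimming by Fastp, the authors mapped the reads to ARS-UCD1.2 by HISAT. Each library was assembled on its own by StringTie (1.3.3b per the file headers), with the NCBI annotation as a guide. The deposited coverage, FPKM and TPM of each transcript were used as the authors gave them, and coverage over FPKM gave 14.1 to 14.6 aligned gigabases per Shandong black and 17.5 to 18.0 per Luxi library. Read counts were not used, so no counting error is given, and the number of animals limits the precision.

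Gene FPKM was summed over reference transcripts plus those assembled transcripts that lay on the same strand and had 50% or more of their bases on the exons of the gene. The remaining assembled transcripts, 21.6 to 29.8% of the FPKM of a library, were left out, so a gene whose reads were assembled elsewhere is underestimated. A transcript that was not listed in an animal was set to 0. The 9781 of 18010 genes whose mean FPKM was 1 or more in a breed were tested with limma 3.58.1 in R 4.3.3 (lmFit, eBayes with trend) on log2(FPKM + 1), with no covariate and Benjamini-Hochberg adjustment. Fold changes on this scale understate those of low genes. Cuffdiff, which the authors used, needs alignments and was not run here. With it the paper lists DAG1, LAMB2, HSPG2 and LAMA5 as upregulated genes of ECM-receptor interaction, whereas none of them passed the threshold in limma. On simulated data for this comparison with 9781 genes, 68% of 200 genes changed by a log2 difference of 1.5 and 93% of 200 changed by 3 were called, with 7 and 3 unchanged genes called.

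Beside the 8 genes, the called genes of each list and its 4 tested genes with the largest log2 difference were named. So were the 5 tested genes outside the 8 that were most like DMD. Some genes that this rule names are not reported here. Further genes named from the lists, transcripts, exons 37 and 38 and XIST were chosen after their values were seen. The genes of the complex and all lists were chosen with earlier results of these data known. Alternatives were another pseudocount, other filters, TPM, size factors, quantile normalization, no trend, other rules for assembled transcripts, a replicate block and leaving out each animal. The sum of all spliced transcripts and the depth over annotated exons were added after seeing the data. The p-values of limma set the breed difference against the spread between these animals within breeds, moderated over all tested genes. Those of the exact tests come from permuting the breed labels or, for the paired ratio, from sign changes. Python 3.11.15 with pandas 2.3.3 was used. Sequences were not used here.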

Additional observations from a re-analysis of the deposited data

How the results depend on the processing

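Of the 8 genes, DMD, DAG1, SGCA, SGCB and SSPN kept the direction of their difference under all 19 alternatives. The direction turned for UTRN with assembled transcripts from 90% overlap (0.018) and without Luxi cattle replicate 2 (0.22) or replicate 3 (0.02, range over omitted animals -0.57 to 0.22), for SGCD with assembled transcripts from 25% overlap (0.0025) and with depth over all annotated exons (0.61), and for DTNA without Luxi cattle replicate 2 (range -0.023 to 0.56). For SGCD the alternatives differ in the transcripts they include, and for the other genes the cause was not tested. ITGB1BP2 turned without Shandong black cattle replicate 2 or Luxi cattle replicate 2 (range -0.15 to 1.56).

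The number of the 8 genes past the threshold was 0, and it was 1 (DAG1) with TPM, quantile normalization and no trend, as was the number past the adjusted p alone. Leaving out an animal gave 0 to 2 past the threshold and 0 to 3 past the adjusted p, with the highest counts without Luxi cattle replicate 1 (DAG1, SGCA and, past the adjusted p alone, SSPN). The count of genes whose animals do not overlap was 3 to 7 and their median difference 0.31 to 0.68 when an animal was left out, again highest without Luxi cattle replicate 1. With fewer animals any gene reaches non-overlap more easily. The share and the median of all tested genes in these settings are not given here, so these values are no result about the 8 genes.

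Among all tested genes 251 passed, against 63 without a filter, 134 at a mean FPKM of at least 5 and 163 with reference transcripts only, and 3 (without Shandong black cattle replicate 3) to 593 (without Luxi cattle replicate 1) when an animal was left out. Without Shandong black cattle replicate 1 the count was 10, and without Luxi cattle replicates 2 and 3 it was 44 and 87. The filter of 5 was set on the mean over all 6 animals and not on that of either breed, so it changed the level and the animals averaged together. The cause of the other changes was not tested. Among the genes around the complex 1 passed, NOS1. The count was 0 with a pseudocount of 0.1, without a filter, with size factors and with quantile normalization. At a mean FPKM of at least 5 it was also 0, but NOS1 was not tested there. The count was 2 with reference transcripts only (ITGA7 and LAMA5) and 4 with depth over all annotated exons (NOS1, LAMB2, LAMA5 and HSPG2). When an animal was left out it was 0 to 4 (4 without Luxi cattle replicate 1, namely CAPN3, CAV3, LAMB2 and SNTB1).

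The replicate numbers were not taken to pair the animals, since same-numbered animals are different animals and the deviations of same-numbered animals from their breed means correlated by 0.084, 0.087 and 0.075 across genes. Each animal correlated best with its own number, which is a hint from the data and not from the design. With a replicate block, 135 of all genes and 2 genes around the complex (NOS1 and SNTB1) passed, and none of the 8 genes did. For the log2 ratio of UTRN to DMD, pairing leaves the mean difference of -0.60 unchanged by definition and alters only the test (exact sign-flip test, p = 0.5). The difference in this ratio stayed below 0 under all 13 of its alternatives, the pairing included, from -1.11 to -0.17.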

Other observations

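At the locus of DMD the assembly held many transcripts of 1 exon on the strand of the gene, which were not counted in its level. Their length and their place relative to the introns were not examined. They numbered 72, 78 and 64 in the Shandong black and 52, 26 and 59 in the Luxi cattle, with a summed FPKM of 24.0, 32.4 and 21.2 in the former and 46.1, 13.4 and 25.6 in the latter. The breeds overlapped, with the highest and the lowest sum in Luxi cattle replicates 1 and 2. SGCD, the other gene with a very long locus (1112 kb against 2365 kb for DMD), had 2, 88 and 21 such transcripts in the Shandong black and 24, 42 and 0 in the Luxi cattle, whereas UTRN, SGCA, SGCB and SSPN had none in any animal. DTNA had 43 in Shandong black cattle replicate 2 and none in the others. DAG1 had 3, also in Shandong black cattle replicate 2.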
